A study of Sus scrofa with 40 samples.

Results

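Regenerated coronary endothelial cells were compared with native ones in pigs fed a high-cholesterol diet (CHL). The comparison rested on 12 of the 40 arrays of the series, those titled CHL-regenerated1 to 6 and CHL-native1 to 6, which were paired by the number in the title into 6 pairs. The labels name the same animal for both arrays of each pair. All animals were female farm pigs aged 4 months. Regenerated cells were scraped from the stretch of the left anterior descending artery (LAD) that had been denuded earlier, and native cells from the left circumflex artery (LCX) of the same heart. Regeneration and artery therefore cannot be told apart. The scraped cells were grown on collagen for 10 days and used as primary cultures at passage zero, with 1 array per culture. The other pairs of the series are 6 from animals on a fish-oil diet rich in polyunsaturated fatty acids (FO) and 8 from the control group. With the CHL pairs these make 20. The FO and control pairs are used only where they show how the CHL pairs differ.

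The endothelium is the cell layer that lines an artery. After it is scraped away, neighbouring endothelial cells divide and migrate to cover the wall again, and the regrown layer is known for weaker nitric oxide release and for taking up more modified low-density lipoprotein. Raised blood cholesterol is a textbook cause of inflamed endothelium, which then shows adhesion molecules (selectins, VCAM-1, ICAM-1) that catch leukocytes and can carry tissue factor, the trigger of clotting. The cells were measured after culture, outside the animal.

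The deposited MAS5 signals are array intensities on a linear scale. The median signal of the 12 CHL arrays lay between 89.5 and 120.8, and their actin 3'/5' control ratios, a sign of RNA integrity, between 1.47 and 3.13. None of the CHL arrays passed a 3'/5' ratio of 10, which 2 of the 40 arrays did, both from other diets. Both were kept in the fit, which pools the spread over all 40 arrays. Within a CHL pair the log2 signals correlated at 0.959 to 0.987 across probe sets, which are not independent replicates. The endothelial label was checked against marker genes, which were bright for some and dim for others. VE-cadherin (CDH5), the endothelial junction protein, had signals of 7065 to 9874 in regenerated and 6385 to 8988 in native CHL cultures. PECAM1, another endothelial surface protein, had signals of 6731 to 10120 in regenerated and 5985 to 9336 in native cultures. Of 16 endothelial marker genes named on the array, 14 passed the filter on low signals, and KDR and ERG did not. Von Willebrand factor (VWF), the endothelial clotting glycoprotein, was dim, at 45.6 to 99.7 in regenerated and 27.9 to 74.6 in native cells, and so was the VEGF receptor FLT1, at 31.1 to 151.0 in regenerated and 36.4 to 98.4 in native cells. The precision of every value below is limited by the 6 pairs.

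Across 17999 probe sets, 1 was lower and 0 were higher in regenerated CHL cells past an adjusted p of 0.05, in a limma fit of log2(signal + 16) over all 40 arrays with animal as a block and Benjamini-Hochberg adjustment. That is 0.00556% of the probe sets tested. At an unadjusted p under 0.05, 1145 probe sets differed (6.36%), of which 625 (3.47%) were higher and 520 (2.89%) were lower in regenerated cells. The log2 change was negative for 45.8% of all probe sets. The regenerated value lay above the native one in all 6 animals for 546 probe sets (3.03%) and below it in all 6 for 317 (1.76%). The 6 regenerated signals lay wholly below the 6 native signals for 15 probe sets (0.0833%) and wholly above them for 16 (0.0889%). The median log2 change over all probe sets was 0.02. Probe sets carry gene names for a minority only: 2253 genes, each by 1 probe set, could be described.

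The probe set that fell is annotated only as a transcribed locus, and the files give it no gene name. Its signal had a lowest, median and highest value of 1.17, 5.22 and 32.6 in regenerated cells, against 82.0, 395 and 797 in native cells. Every regenerated signal was under the median of its array, every native signal but that of animal 5 lay above the highest array median, and the groups did not overlap. It fell by 3.63 on the log2(signal + 16) scale (SE 0.476, adjusted p = 0.00324, limma), with differences between -4.56 in animal 6 and -2.51 in animal 5. The log2 level was 4.72 ± 0.64 in regenerated and 8.36 ± 1.09 in native cells (mean ± SD, n = 6 each). Since the added 16 damps changes of dim probe sets, the size depends on it: the log2 change was -5.13 with 1 and -2.35 with 64 in its place. By the methods' t-test, the paired test on the 6 CHL pairs alone, its Benjamini-Hochberg adjusted p was 0.438. Another unnamed probe set had the next smallest p. Its signals were 3.29 to 30.3 in regenerated and 44.7 to 166.5 in native cells, which do not overlap, at -1.80 on the log2 scale (SE 0.317, adjusted p = 0.0901, limma). With animal as a random effect in place of the fixed block its adjusted p was 0.00593, and the highest across the limma settings was 0.480.

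Among named genes the smallest p belonged to ZNF423, a zinc finger transcription factor known for committing cells to the fat cell lineage and for working with bone morphogenetic protein signals. Its signal had a lowest, median and highest value of 46.0, 81.2 and 105 in regenerated cells, against 148, 191 and 373 in native cells. The 2 groups did not overlap. The log2 change was -1.34 (SE 0.239, adjusted p = 0.0901, limma), lower in 6 of 6 animals, which missed the threshold. Of the 4 adipocyte markers tested it was the 1 negative gene. PPARG (0.82), FABP4 (0.63) and LPL (0.43) were positive, none past the threshold. LRFN5, a cell-adhesion protein of neurons, had signals of 4.99, 18.3 and 34.0 in regenerated cells, against 25.2, 54.5 and 126 in native cells, a log2 change of -1.11 (SE 0.208, adjusted p = 0.101, limma). It was lower in every animal, yet the difference was -0.23 in animal 4 against -1.56 in animal 3, and the groups overlapped. Coagulation factor V (F5), the cofactor with which activated factor X turns prothrombin into thrombin, had signals of 41.1, 82.5 and 211 in regenerated cells, against 62.9, 230 and 660 in native cells. Its log2 change was -1.18 (SE 0.244, adjusted p = 0.210, limma), lower in 5 of 6 animals, with 0.05 in animal 4. Without the pair of animal 4, ZNF423 (log2 -1.50), LRFN5 (-1.29) and F5 (-1.42) each had an adjusted p of 0.0433, in place of 0.0901, 0.101 and 0.210 with it. With all 6 animals and animal as a random effect in place of the fixed block, ZNF423 had an adjusted p of 0.00400 at the same log2 change. Other settings moved these genes away from the threshold. The highest adjusted p across the limma settings was 0.571 for ZNF423 and 0.9999 for both LRFN5 and F5.

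**Figure D1:**
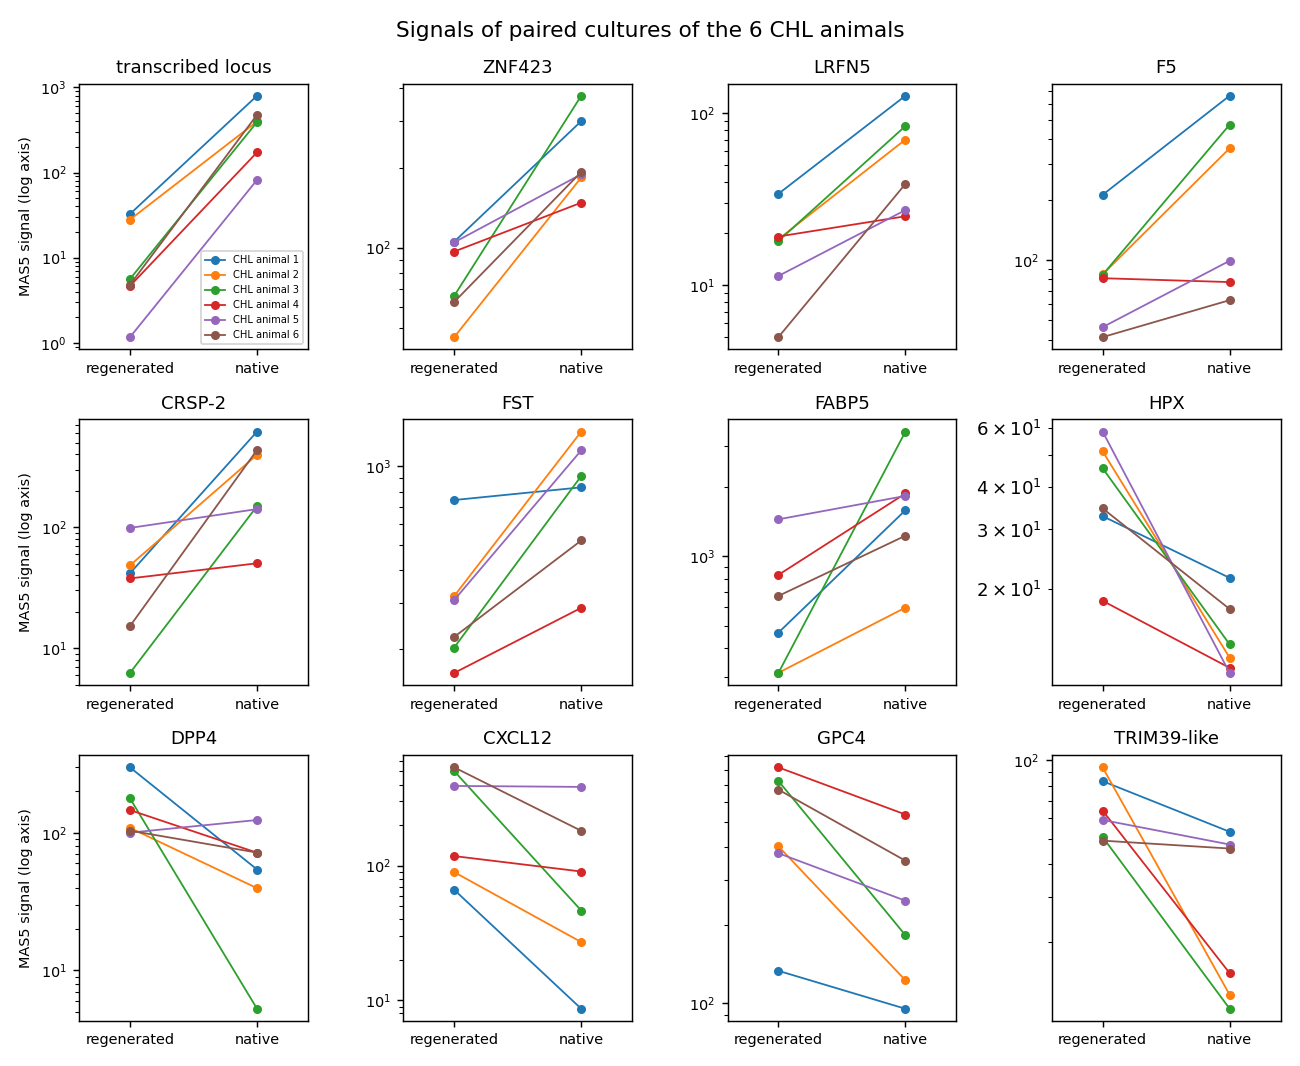
MAS5 signals (log axis) of 12 probe sets in the 6 CHL animals, with regenerated cells at the left and native cells at the right of each panel and 1 coloured line per animal. The transcribed locus and ZNF423 have groups that do not overlap, while F5 is nearly level in animal 4 and DPP4 is slightly lower in regenerated cells of animal 5.

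The other genes at the low end included peptides of the calcitonin family. CRSP-2, a porcine member of this family, had signals of 6.24, 39.7 and 98.7 in regenerated cells, against 50.3, 273 and 618 in native cells. All 6 animals were lower in regenerated cells, but the differences split into -3.85 to -2.68 in animals 1, 2, 3 and 6 and -0.46 to -0.30 in animals 4 and 5. The log2 change was -2.28 (SE 0.574, adjusted p = 0.330, limma). CALCB, which encodes the vasodilator peptide calcitonin gene-related peptide beta, was at -0.71 (SE 0.282, adjusted p = 0.775, limma), with a negative difference in 6 of 6 animals. Its signals were 221 to 403 in regenerated and 242 to 1019 in native cells, so the groups overlapped.

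The list of TGF-beta, activin and transition factors was 7 positive and 11 negative of 18, with a median of -0.04. Follistatin (FST), which binds and neutralises activin, had signals of 162, 265 and 744 in regenerated cells, against 287, 876 and 1361 in native cells. Animal 1 was nearly level at -0.16 and the other 5 lay between -2.10 and -0.77, for a log2 change of -1.35 (SE 0.401, adjusted p = 0.597, limma). P311, a small protein linked to TGF-beta and myofibroblasts, was at -1.24 (SE 0.309, adjusted p = 0.327, limma), lower in 6 of 6 animals, with animal 3 at -3.14 far from the rest. Periostin (POSTN), a matrix protein made by fibroblasts and activated smooth muscle, had the widest range, with signals of 2.17, 170 and 981 in regenerated cells, against 130, 655 and 5487 in native cells. It was lower in 5 of 6 animals, by log2 differences of -4.62 to -0.98, and higher by 0.58 in animal 4. Its log2 change was -2.69 (SE 0.766, adjusted p = 0.519, limma).

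Of 14 genes of fatty acid oxidation and carriers 7 were positive and 7 negative, with a median of -0.02. At an unadjusted p under 0.05, 2 were lower and 0 higher, against 8.12% of all 2253 genes in either direction. One of these, FABP5, which carries fatty acids inside the cell, had a median and highest signal of 569 and 1443 in regenerated cells, against 1702 and 3463 in native cells, and was lower in 6 of 6 animals. Its log2 change was -1.40 (SE 0.419, adjusted p = 0.603, limma), and another probe set of the gene gave -1.36. The oxidised low-density lipoprotein receptor OLR1 (LOX-1), by which endothelium takes up oxidised particles, had signals of 10.4, 23.7 and 460 in regenerated cells, against 6.10, 290 and 651 in native cells. Both arrays of animal 4 were dim (10.4 in regenerated and 6.10 in native cells), and both of animal 1 were high (460 in regenerated and 651 in native cells). The log2 change was -1.84 (SE 0.597, adjusted p = 0.652, limma), lower in 5 of 6 animals.

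Of the probe sets with a gene title but no symbol, the 10 with the smallest p were examined. The 7 of them that were lower in regenerated cells are given here. The probe set titled for autotaxin (ENPP2), the secreted enzyme that makes lysophosphatidic acid, had signals of 13.2, 23.5 and 29.7 in regenerated cells, against 27.8, 73.8 and 422.6 in native cells. The regenerated signals were uniformly low and only the native ones spread, and the log2 change was -1.56 (SE 0.383, adjusted p = 0.327, limma), lower in 6 of 6 animals. Phosphoglucomutase 5, a protein of muscle adhesion sites, was at -1.99 (SE 0.494, adjusted p = 0.327, limma) and also lower in 6 of 6, with animal 3 at -4.28 and animal 5 at -0.76. Butyrylcholinesterase (-1.18), neural cell adhesion molecule 1 (-1.29), microsomal glutathione S-transferase 2 (-1.01), src family associated phosphoprotein 2 (-0.93) and a serine hydrolase-like protein (-0.70) had adjusted p values between 0.327 and 0.480 by limma. The first 4 of these were lower in 5 of 6 animals and the last in 6 of 6.

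At the high end no probe set passed the threshold. Hemopexin (HPX), the plasma protein that binds free haem, had signals of 18.4, 40.1 and 58.6 in regenerated cells, against 11.3, 13.1 and 21.6 in native cells. All 12 were under the array medians and only animal 4 put the lowest regenerated signal among the native ones. The log2 change was 0.84 (SE 0.207, adjusted p = 0.327, limma), higher in 6 of 6 animals. The deposited description of this probe set names a hyaluronidase while its title names hemopexin, so its identity is uncertain.

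The probe set titled glypican 1, a surface proteoglycan of endothelium, had signals of 50.98, 92.0 and 121 in regenerated cells, against 8.25, 33.7 and 46.3 in native cells, and the groups did not overlap. Its log2 change was 1.15 (SE 0.328, adjusted p = 0.519, limma), with the 6 differences between 0.74 and 1.47. Glypican 4 (GPC4) was at 0.997 (SE 0.425, adjusted p = 0.779, limma), higher in 6 of 6 animals, with overlapping signals of 133 to 816 in regenerated and 95.0 to 536 in native cells. CXCL12, the chemokine that recruits progenitor cells through CXCR4, was higher in 6 of 6 animals, at 1.32 (SE 0.555, adjusted p = 0.779, limma) and 1.06 by a second probe set. Its difference was 3.06 in animal 3 and 0.02 in animal 5.

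DPP4, the surface peptidase that inactivates incretins and CXCL12, had signals of 100, 127 and 299 in regenerated cells, against 5.26, 62.8 and 124 in native cells. It was at 1.26 (SE 0.329, adjusted p = 0.366, limma), higher in 5 of 6 animals, with animal 5 at -0.27. The prion protein gene PRNP, coding for a surface protein of many cells, was at 0.70 (SE 0.195, adjusted p = 0.472, limma) and higher in 6 of 6 animals. A probe set without a symbol, annotated as retinoic acid induced 3, was at 0.64 (SE 0.148, adjusted p = 0.326, limma), higher in 5 of 6 animals.

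The CHL pairs share no array with the other diets, so the leading CHL probe sets could be looked up there, with the spread estimated jointly and the same LAD and LCX arteries in every pair. In FO pair 6 the 2 arrays carry animal labels that do not match each other. Control pair 6 and FO pair 3 each hold an array with a 3'/5' ratio over 10, and they were kept. Of the 20 probe sets with the smallest p among those lower in CHL, all 20 were negative in FO and all 20 in control pairs, where 50.5% and 52.5% of all probe sets were negative. Of these 20, 18 in FO and 13 in control pairs had a negative change at an unadjusted p under 0.05, as did 3.83% of all probe sets in FO and 15.8% in control pairs. Their median log2 change was -1.19 in CHL, -1.14 in FO and -0.71 in control pairs. Because the 3 diets share 1 estimate of spread per probe set, picking by CHL p favours probe sets of small spread. The counts at an unadjusted p in FO and control pairs are therefore not independent of the pick. Of the 100 with the smallest p, 94 were negative in FO and 80 in control pairs, with medians of -0.85 in CHL, -0.63 in FO and -0.23 in control pairs. The 20 probe sets leading among those higher in CHL were positive in FO for 16 and in control pairs for 11, where 49.5% and 47.5% of all probe sets were positive. Of these 20, 6 in FO and 5 in control pairs had a positive change at an unadjusted p under 0.05. Among all probe sets 4.83% in FO and 11.4% in control pairs did. The median of the 20 was 0.78 in CHL, 0.22 in FO and 0.00 in control pairs. Of the 100 leading higher ones, 80 were positive in FO and 67 in control pairs, with medians of 0.68 in CHL, 0.25 in FO and 0.10 in control pairs.

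Single genes followed both patterns. The transcribed locus was at -3.63 in CHL, -3.52 in FO and -3.53 in control pairs. ZNF423 was at -1.34 in CHL, -1.80 in FO and -1.83 in control pairs, and FST at -1.35, -1.35 and -1.29 in the same order. CRSP-2 was at -2.28 in CHL, -2.57 in FO and -2.23 in control pairs and negative in every pair of all 3 diets. HPX was at 0.84 in CHL, 0.18 in FO and 0.12 in control pairs, DPP4 at 1.26, 0.57 and -0.09, and FABP5 at -1.40, -0.81 and -0.16. For none of these did the difference between diets pass the threshold. Over all 17999 probe sets the log2 changes of CHL pairs correlated at 0.400 with those of FO pairs and 0.01 with those of control pairs, a description across probe sets that share arrays within each diet. These values include control pair 6 and FO pair 3, with their arrays of high 3'/5' ratio.

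**Figure D2:**
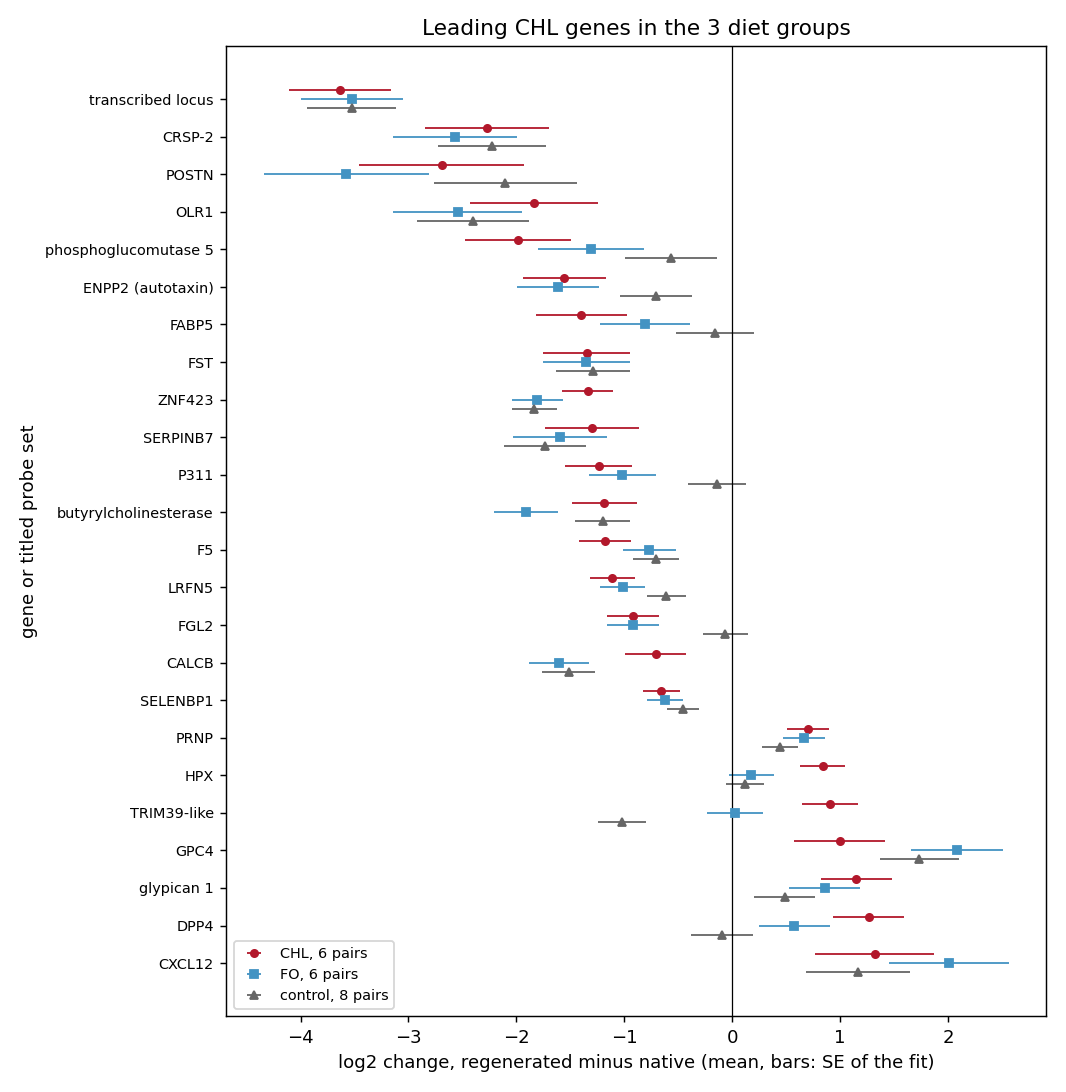
Log2 change, regenerated minus native, of leading CHL probe sets in CHL (6 pairs), FO (6 pairs) and control (8 pairs), as the mean with bars of 1 SE from the fit. The transcribed locus, CRSP-2, FST and ZNF423 lie together left of 0 in all 3 diets, and the TRIM39-like gene lies right of 0 in CHL (0.91) and left of 0 in control pairs (-1.02).

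The difference between regeneration effects, CHL minus control, passed the threshold for 0 of 17999 probe sets by limma, with 2625 (14.6%) at an unadjusted p under 0.05, and CHL minus FO for 0, with 353 (1.96%). The gene with the smallest adjusted p between CHL and control was LOC100156139, titled similar to TRIM39, a ubiquitin ligase of the tripartite motif family. Its signals were 49.2, 61.6 and 94.0 in regenerated CHL cells, against 11.1, 30.6 and 53.2 in native CHL cells, higher in 6 of 6 CHL animals and lower in 8 of 8 control animals. The difference of 1.93 on the log2 scale had an adjusted p of 0.287. With animal as a random effect in place of a fixed block it was the 1 probe set that passed for this difference, at an adjusted p of 0.00896. Smooth muscle alpha-actin (ACTA2), the contractile filament protein, was at -0.44 (SE 0.887) in CHL and 3.62 in control pairs, with an adjusted p of the difference of 0.316.

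Genes of cell division were mostly lower in regenerated CHL cells. Of 21 mitosis genes tested, 19 had a negative change, against 46.2% of all 2253 genes, and the median was -0.51, against 0.02 for all genes. None passed the adjusted threshold, and 9 were lower and 0 higher at an unadjusted p under 0.05, against 8.12% of all genes in either direction. Survivin (BIRC5), which guards chromosome segregation, was at -0.83 (SE 0.302), cyclin B1 (CCNB1), the partner of the mitotic kinase, at -0.78 (SE 0.346), and KIF20A, a kinesin of cytokinesis, at -0.78 (SE 0.263), with adjusted p values of 0.747, 0.779 and 0.671 by limma. BIRC5 signals were 452 to 1747 in regenerated and 1283 to 2457 in native cells. MKI67, the Ki-67 antigen of cycling cells, was at 0.06 (SE 0.529) and is 1 of the 2 exceptions, the other being the nuclear import carrier KPNA2 at 0.10.

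The size of the mitosis shift depended on the animal. The list mean, regenerated minus native, was -1.47 in animal 3 and -0.83 in animal 1, but -0.37, -0.16 and -0.19 in animals 2, 4 and 5 and 0.04 in animal 6. Lower genes numbered 18 of 21 in animal 1, 20 in animal 2 and 19 in animal 3, but 12, 12 and 9 in animals 4, 5 and 6. Without animal 3 the list median was -0.30, a move of over 1.5 times. The mean log2 level of the list was 9.25 ± 0.49 in regenerated and 9.75 ± 0.26 in native cells (SD, n = 6 each). All 9 DNA replication genes tested were negative, with a median of -0.33 and none past the threshold, and RFC3, a subunit of the clamp loader, leading at -0.63 (SE 0.186, adjusted p = 0.585, limma). That list too was lowest in animals 1 (-0.71) and 3 (-1.04), and its median was -0.15 without animal 3. For mitosis the FO median was -0.60 and the control median 0.06.

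**Figure D3:**
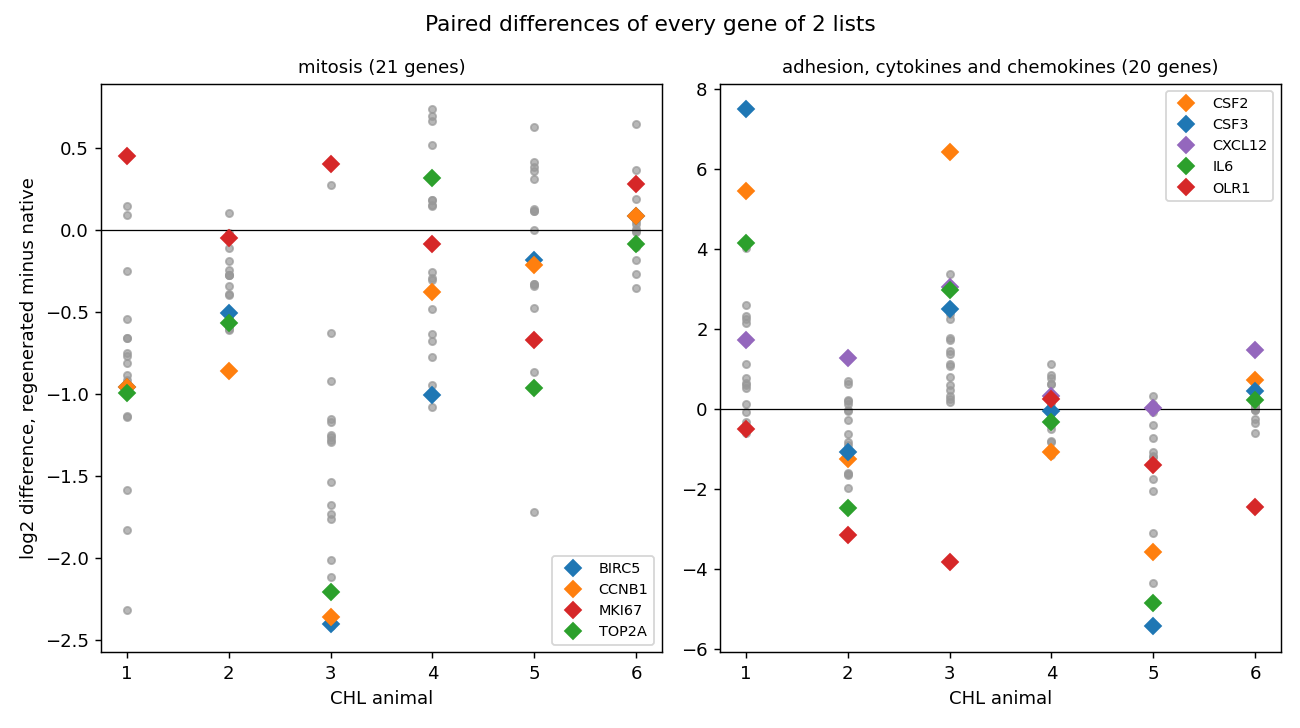
Log2 difference, regenerated minus native, of each of 21 mitosis genes (left) and 20 adhesion, cytokine and chemokine genes (right) in each CHL animal, with 4 and 5 genes coloured. Mitosis genes lie mostly under 0 in animals 1 to 3 and straddle 0 in animals 4 to 6, and of the 20 inflammatory genes 16 lie above 0 in animal 1 and 19 in animal 3, against 4 in animal 5.

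Inflammatory genes had no common direction across the 6 animals. Of 20 adhesion, cytokine and chemokine genes, 13 were positive and 7 negative, with a median of 0.18 and none past the threshold. In animal 1, 16 of the 20 were higher in regenerated cells, in animal 3, 19, and in animal 5, 4. The list mean was 1.82 in animal 1 and 1.52 in animal 3, and -0.71 in animal 2 and -1.66 in animal 5, with -0.05 in animal 4 and 0.09 in animal 6. The median was 0.18 with all animals, -0.07 without animal 1, 0.01 without animal 3 and 0.43 without animal 5.

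The widest differences belonged to cytokines that were picked after their values were seen. Granulocyte colony-stimulating factor (CSF3), which drives neutrophil production, had signals of 7927 in regenerated and 27.9 in native cells of animal 1, and of 19.5 in regenerated and 1515 in native cells of animal 5. The higher culture was the regenerated one in animals 1 and 3 and the native one in animals 2 and 5, with differences of -1.06 and -5.43 in these last. Animals 4 (-0.05) and 6 (0.45) were dim in both cultures. Interleukin 6 (IL6), the fever and acute-phase cytokine, had signals of 32790 in regenerated and 1818 in native cells of animal 1, against 507 in regenerated and 14890 in native cells of animal 5. Its log2 differences ran from -4.83 to 4.16 around a mean of -0.04. The SE of that mean was 1.09, from the spread that limma pools over the 3 diets. CSF2, the granulocyte-macrophage factor, was at 1.12 (SE 1.18) with differences of -3.58 to 6.43, and was at 0.06 without animal 3.

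Tissue factor (F3), the cell-surface starter of coagulation, had the same spread. Its signals were 180, 848 and 5313 in regenerated cells, against 46.0, 156 and 1638 in native cells. The differences were 6.43 in animal 1 and 5.47 in animal 3, between 0.42 and 1.15 in animals 2, 4 and 6, and -1.67 in animal 5. The log2 change was 2.06 (SE 0.894, adjusted p = 0.779, limma), and it ran from 1.18 to 2.80 when 1 pair was left out. Urokinase (PLAU), the plasminogen activator of migrating cells, was at 0.93 (SE 0.397), set by 2.71 in animal 1 and 3.20 in animal 3, with -0.31 to 0.13 elsewhere, and ran from 0.48 to 1.18 when 1 pair was left out.

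Of the leukocyte-catching receptors, E-selectin (SELE) was at -0.30 (SE 0.692) with 3 animals higher and 3 lower, P-selectin (SELP) at 0.78 (SE 0.441), ICAM1 at 0.30 (SE 0.175) and VCAM1 at 0.07 (SE 0.151). ICAM1 was higher in animals 1 (1.13) and 3 (1.09) and lower in the other 4, and ran from 0.14 to 0.42 when 1 pair was left out. SELP ran from 0.47 to 1.17 and SELE from -0.64 to 0.05 in the same way. VCAM1 signals were high and even, 13690 to 24980 in regenerated and 14060 to 21300 in native cells. By the probe set of highest mean level, the adjusted p values of these 4 genes ran from 0.826 to 0.978 by limma. A second ICAM1 probe set was at 0.45 (SE 0.172, adjusted p = 0.775, limma). Of 22 interferon-response genes 13 were positive and 9 negative, with a median of 0.04 that was -0.05 without animal 1, -0.13 without animal 3 and 0.20 without animal 5. In animal 1, 19 of the 22 were higher in regenerated cells, in animal 3, 20, in animal 5, 3, and in animal 6, 1. The interferon list had a median of -0.74 in FO and -1.05 in control pairs, and the adhesion list of -0.40 in FO and -0.98 in control pairs.

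Across the whole array, animals 1 and 3 had the most alike paired differences, as a description over probe sets. Their paired differences correlated at 0.446 over 17999 probe sets, the highest of the 15 animal pairs, and those of animals 1 and 5 at -0.254, the lowest, with a median of 0.03. Their differences were also the widest, with an SD of 0.685 in animal 1 and 0.701 in animal 3, against 0.395 to 0.554 in the other 4. In animal 3, 882 probe sets were over 1 log2 unit higher and 1167 over 1 log2 unit lower, against 254 and 207 in animal 6.

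Genes of endothelial function showed no shift past the threshold. Endothelial nitric oxide synthase (NOS3), the source of the vasodilator nitric oxide, had signals of 562, 798 and 1522 in regenerated cells, against 594, 840 and 1354 in native cells. The 2 groups overlapped throughout, and the mean log2 difference was -0.01 (SE 0.198, adjusted p = 0.997, limma). Endothelin 1 (EDN1), the constrictor peptide, was at -0.19 (SE 0.249), cyclooxygenase 1 (PTGS1) and thromboxane synthase (TBXAS1), which act in turn in thromboxane synthesis, both at -0.01 (SE 0.541 and 0.335). Of 14 endothelial markers 8 were positive, with a median of 0.14, which was 0.23 without animal 1 and 0.02 without animal 5. Endomucin (EMCN), a surface sialoprotein of endothelium, was the lowest at -0.63 (SE 0.320), and the hypoxia factor EPAS1 was at 0.35 (SE 0.154), positive in 5 of 6 animals, with adjusted p values of 0.807 and 0.779 by limma. A second EPAS1 probe set was at 0.68 (SE 0.300, adjusted p = 0.779, limma).

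Markers of other cell types were measured because scraping can carry cells from the wall, and fewer cells of a type and less RNA per cell cannot be told apart in such bulk cultures. The summed signal of 11 smooth muscle markers ran from 16840 to 42790 in regenerated and from 17740 to 40680 in native cells. Of the 11, 7 were positive, with a median of 0.06, which was -0.12 without animal 5. In animal 5 alone the list mean was large (0.89), with calponin (CNN1) at 2.18 and transgelin (TAGLN) at 1.43. The summed signal of 10 fibroblast markers ran from 1745 to 3929 in regenerated and from 2599 to 7292 in native cells, and 5 of the 10 were positive. Among them POSTN, decorin (DCN, -1.16) and lumican (LUM, -1.03) were negative and DPP4 and COL1A2 (0.47) positive, and the part of such cells in the POSTN values was not tested. Leukocyte markers were limited to CD14, lysozyme and TYROBP, with summed signals of 91.8 to 2947 in regenerated and 195.7 to 3232 in native cells. The 2 pericyte genes and 4 adipocyte genes tested summed to 39.3 to 153.4 and 206.6 to 476.1 in regenerated cells, against 28.9 to 140.8 and 296.5 to 442.4 in native cells. The T cell marker CD3E, the cardiac muscle marker CASQ2 and the fat cell hormones ADIPOQ and LEP were under the filter on low signals, and none of the red cell markers was named on the array.

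Cholesterol synthesis genes had no common direction in these cultures from cholesterol-fed animals. Of 7 cholesterol synthesis genes 3 were positive and 4 negative, with a median of -0.002. Mevalonate kinase (MVK), an early enzyme of the sterol pathway, was small but even at 0.22 (SE 0.120) by one probe set, positive in 6 of 6 animals. Another MVK probe set was at 0.07 (SE 0.152). Of 10 cholesterol transport genes 7 were positive, with a median of 0.16 that was 0.08 without animal 3. The efflux pump ABCA1 was at 0.50 (SE 0.291), between 0.55 and 1.01 in 5 animals and at -1.16 in animal 5. PPARG, the nuclear receptor of fat cell differentiation, was at 0.82 (SE 0.332, adjusted p = 0.775, limma), positive in 5 of 6 animals, beside 1.62 in FO and 1.30 in control pairs.

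Mitochondrial and the remaining lists had medians between -0.16 and 0.25. Of 20 oxidative phosphorylation genes 18 were negative, but the median was only -0.16, and the list mean was -0.50 in animal 4, where 16 of the 20 were lower, and the median was -0.03 without animal 4. Angiogenic signalling genes had a median of 0.25 with 12 of 19 positive, including CXCL12 and vascular endothelial growth factor A (VEGFA, 0.52, SE 0.239), and the median was 0.15 without animal 3. VEGFA was at 1.69 in animal 1 and 1.23 in animal 3 and negative in 2 animals, and ran from 0.29 to 0.65 when 1 pair was left out. Coagulation genes had a median of 0.16 with 9 of 14 positive, with F3 and PLAU above and F5 below 0, and the median was 0.05 without animal 4. Matrix and adhesion receptor genes were split, 13 positive and 16 negative, as were ribosomal proteins, 15 and 14. Matrix proteases and crosslinking enzymes were positive for 11 of 13, with a median of 0.22 that was 0.07 without animal 3. No gene of any list passed the adjusted threshold.

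**Figure D4:**
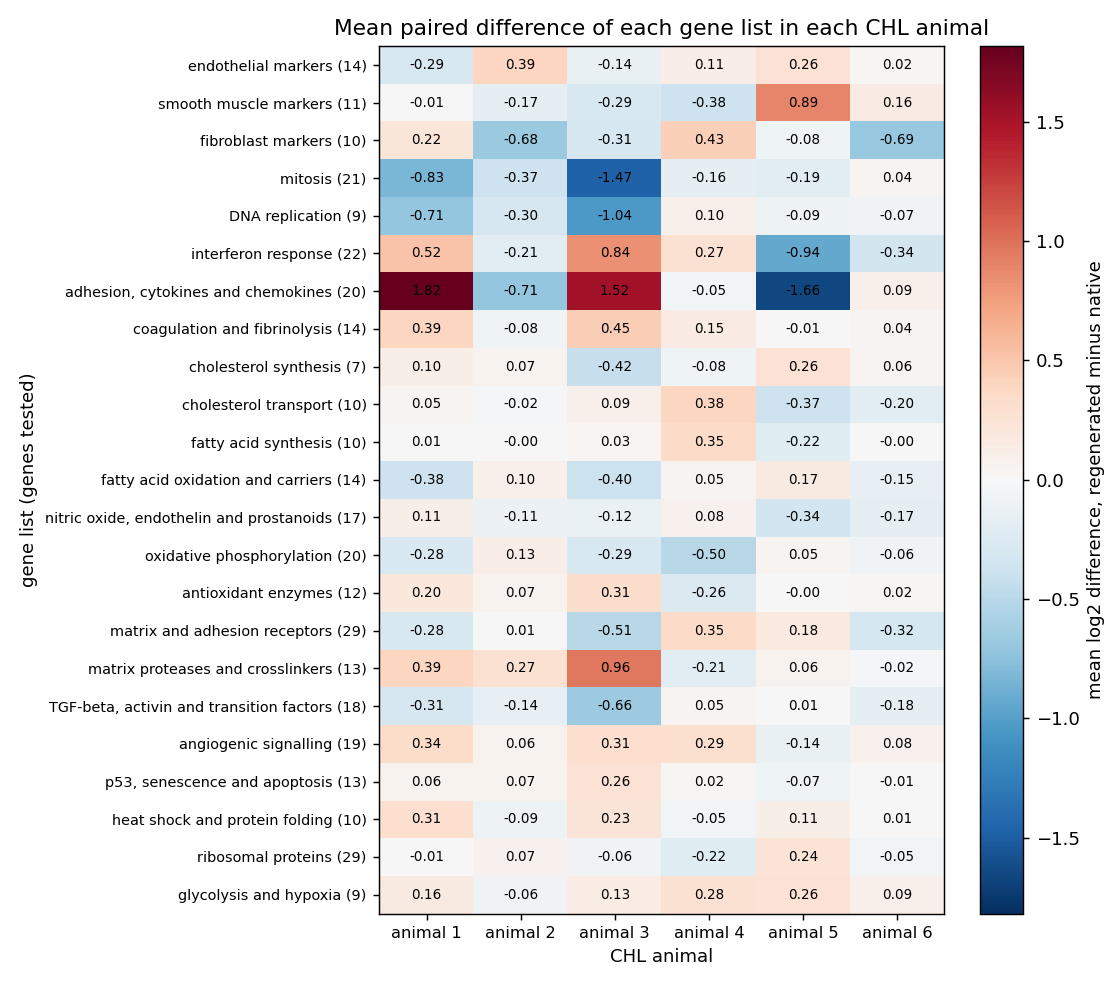
Mean log2 difference, regenerated minus native, of each gene list (rows, with the number of genes tested) in each CHL animal (columns), red where higher and blue where lower in regenerated cells. The adhesion, cytokine and chemokine row spans 1.82 in animal 1 and -1.66 in animal 5, and the mitosis row is lowest in animal 3 at -1.47.

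The authors' deposited table of probe sets over 2-fold in CHL holds 33 probe sets, 7 up and 26 down in regenerated cells. The list was chosen on these same arrays, so its direction is not independent evidence. Of the 31 that passed the filter here, all 31 had the deposited direction, 22 had an unadjusted p under 0.05 and 0 passed the adjusted threshold by limma. The genes named from it here were chosen after their values were seen. The probe set described as similar to nephroblastoma overexpressed (NOV, a matricellular growth regulator) is down 4.23-fold and cadherin 11 (CDH11), a mesenchymal adhesion protein, down 3.17-fold in the authors' deposited table. In the fit over 40 arrays the NOV-like probe set was at -2.19 (SE 0.955) and CDH11 at -1.46 (SE 0.503), with adjusted p values of 0.779 and 0.695.

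Animal 3 stood out in both of these genes. The NOV-like signal was 91.5 in regenerated and 15220 in native cells of animal 3, a difference of -7.15, while in animal 5 it was 1828 in regenerated and 639 in native cells. CDH11 was at -5.13 in animal 3 and between -1.79 and 0.48 in the other animals. Without animal 3 the NOV-like probe set was at -1.19 and CDH11 at -0.72. The probe set titled EFEMP1, a fibulin of the elastic matrix, was lower in 6 of 6 animals at -1.30 (SE 0.446). Gamma-adducin (ADD3), which caps actin at the membrane, was lower in 4 of 6 at -1.44 (SE 0.454) by one probe set, which ran from -1.82 to -0.95 when 1 pair was left out, and was at -0.12 (SE 0.198) by another. The growth factor BDNF was lower in 5 of 6 at -0.78 (SE 0.595), and ran from -1.29 to -0.43 when 1 pair was left out. Of the genes up in the authors' deposited table, F3 (3.68-fold) and DPP4 (2.50-fold) are described above, and the drug efflux pump ABCB1, named by title (2.51-fold), was at 0.97 (SE 0.531) here, with 4.80 in animal 3 and -1.27 in animal 5, and at 0.21 without animal 3.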

How the data were processed

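Total RNA of the cultures was hybridised to Affymetrix porcine arrays, per the labels' protocols. The deposited value table holds intensity values, signals on a linear scale, and the submitters' processing notes name MAS5 without a version. In that table the mean signal of every array, after trimming 2% at each end, is 500.1. The authors' deposited lists give linear fold (ratio) values per probe set between regenerated and native cells, and were used only for description. Gene names came from the deposited lists: 3090 of 23999 gene probe sets have a gene name, with 61 of these named from title or description. LOC names were updated through their gene IDs.

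Computed here, from the deposited intensities: log2(signal + 16), as the deposited table holds linear and not log2 values. After leaving out 124 control probe sets, 17999 above the 25th percentile of mean level were kept. The fit used limma 3.58.1 in R 4.3.3 (lmFit, eBayes) on all 40 arrays with animal as a fixed block, two-sided, with Benjamini-Hochberg adjustment over all probe sets at 0.05. The pairing comes from the diet and number in the title, and the labels name the same animal for both arrays of each CHL pair. FO pair 6, with animal labels that do not match, was kept as 1 block. Paired CHL arrays deviated together (correlation 0.217 to 0.673 in 6 of 6 pairs, median 0.568, against -0.05 for other numbers). The script was tested on simulated data. Nothing in the labels says that the cultures were repeated within an animal, so p-values measure the spread between animals.

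Named genes were every probe set past the threshold, the 20 symbols of smallest p, the 10 largest changes each way among symbols with 6 concordant pairs and an unadjusted p under 0.05, up to 4 members per list by p, a set of vascular and lipid genes, and 10 titled probe sets without a symbol. The second unnamed probe set, CSF2, CSF3, IL6, CCNB1, MKI67, KPNA2, CNN1, LUM, THBD and the genes of the authors' 2-fold list other than F3, DPP4 and DCN were chosen after their values were seen. The members and the 27 gene lists were chosen with earlier results of these data known. A list is described by counts and its median, with 1 probe set per gene, the one of highest mean level, without a test. Alternatives were other added constants, filters, quantile normalization, the block as random or absent, the CHL arrays alone, pairs left out, an intensity trend, and the methods' t-test. Some genes that these rules name are not reported here.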

Additional observations from a re-analysis of the deposited data

Results flagged for a closer look

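Paired differences that stood far from the other 5 CHL animals (a gap to the nearest animal above Dixon's 95% critical value) were found in 12 of 186 sets of 6 differences checked, from 160 probe sets and 26 gene lists, and chance alone flags about 1 in 20. On the log2 scale, regenerated minus native, animal 3 stood apart at 2.76 for an unnamed probe set and at -3.14 for P311. Animal 1 stood apart at 2.40 for BPIFA1, an airway secretory protein, at 0.55 for HSPA5, the chaperone of the endoplasmic reticulum, and at -2.49 for lysozyme (LYZ). Animal 5 stood apart at 0.94 for RPL10A, 0.0790 for NDUFV1, -1.16 for ABCA1 and 1.43 for TAGLN. Animal 4 stood apart at 0.35 for glutathione reductase (GSR) and 0.75 for ATP citrate lyase (ACLY), where the other 5 animals lay between 0.03 and 0.05, and animal 6 at -0.14 for ACADVL. LOC100156139, similar to TRIM39, was higher in regenerated cells of every CHL animal, at a mean of 0.91, and lower in regenerated cells of every control animal. That difference was tested and had an adjusted p of 0.287 by limma.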

How the results depend on the processing

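The transcribed locus that fell was past the threshold in all 18 limma settings, with an adjusted p of 1.82e-05 to 0.0403 and a log2 change of -5.13 to -2.35. Without the pairs of the 2 arrays over the 3'/5' limit its adjusted p was 0.000536 by limma, against 0.00324 with them. The methods' t-test with Benjamini-Hochberg adjustment called 0 in total and 0 lower, and at an unadjusted p under 0.05 it gave 1221 in total, 778 higher and 443 lower. With animal as a random effect in place of the fixed replicate block, 7 passed, 2 higher and 5 lower, ZNF423 and the second unnamed probe set among them, and 1 passed for CHL minus control; without a replicate block 1 passed. Leaving out 1 CHL pair gave 1 to 4 in total and 1 to 4 lower, the 4 without animal 4. The cause of these differences was not tested. The other limma alternatives gave 1 lower and 0 higher. In the alternatives that hold all 3 diets, the differences between diets gave 0 for CHL minus control but for the random effect, and 0 for CHL minus FO. The CHL arrays alone and the methods' t-test give no such difference. Of 160 named probe sets, 11 changed sign under some alternative, all uncalled, among them CSF3 (-0.72 without animal 1) and EDN1 (0.06 without animal 3). Of 26 lists, 12 changed the sign of the median. The adipocyte median was -1.34 with a filter above the 50th percentile, which leaves 1 gene, and that of nitric oxide, endothelin and prostanoids was -0.14 without animal 1, against 0.53 and 0.04. With 6 pairs, small changes of dim probe sets could not be measured well.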

Other observations

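Several named genes with small p belong to none of the gene groups described above. Selenium-binding protein 1 (SELENBP1) had signals of 104 to 212 in regenerated and 130 to 443 in native CHL cells, a log2 change of -0.66 (SE 0.169, adjusted p = 0.366, limma), lower in 6 of 6 animals, beside -0.62 in FO and -0.45 in control pairs. FGL2, a fibrinogen-like prothrombinase, was at -0.92 (SE 0.243, adjusted p = 0.409, limma), lower in 5 of 6 animals, beside -0.92 in FO and -0.06 in control pairs. SERPINB7, an intracellular protease inhibitor, was at -1.30 (SE 0.436, adjusted p = 0.652, limma), lower in 6 of 6 animals, beside -1.59 in FO and -1.73 in control pairs. The gene similar to FAM84B, LOC100156715, had signals of 14.5 to 165 in regenerated and 206 to 596 in native cells. Those groups did not overlap, and the log2 change was -1.36 (SE 0.408, adjusted p = 0.603, limma).

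On the high side, the xenobiotic-metabolising cytochrome CYP1A1 was at 0.87 (SE 0.408, adjusted p = 0.779, limma), higher in 6 of 6 CHL animals. CYP1A1 signals were 391 to 879 in regenerated and 175 to 576 in native cells. Thrombomodulin (THBD), the endothelial anticoagulant receptor, chosen after its values were seen, was at 0.29 (SE 0.353) in CHL pairs, with 4 of 6 animals higher. It was at 0.70 in FO and 1.07 in control pairs, where 6 of 6 and 8 of 8 pairs were higher. Its CHL differences were -1.50 in animal 1 and -0.73 in animal 4 and 0.83 to 1.08 in the other 4 animals, and the difference between CHL and control pairs had an adjusted p of 0.410.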
